A study of Mus musculus with 2 samples.

Results

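The Hox genes encode homeodomain transcription factors that tell cells their place along the head to tail axis of the embryo. They lie in 4 clusters, Hoxa, Hoxb, Hoxc and Hoxd, and the order of genes within a cluster follows the order in which they are used along the body, with genes of group 1 used near the head and genes of group 13 near the tail and the tips of the limbs. In embryonic stem cells (ESCs) the clusters are known as a classic target of Polycomb repression and are mostly silent, and their promoters lie in many CpG islands set close together. KDM2A is a histone H3 lysine 36 demethylase whose ZF-CxxC zinc finger reads CpG dinucleotides that carry no methyl group, so the clusters are a place where its binding can be followed over many neighbouring islands.

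KDM2A was examined over 38 Hox genes, chosen by gene name and cluster and not by any measured value, but with earlier results of these data known. They comprise 10 genes of Hoxa (Hoxa2, Hoxa3, Hoxa4, Hoxa5, Hoxa6, Hoxa7, Hoxa9, Hoxa10, Hoxa11 and Hoxa13), 10 of Hoxb (Hoxb1 to Hoxb9 and Hoxb13), 9 of Hoxc (Hoxc4, Hoxc5, Hoxc6 and Hoxc8 to Hoxc13) and 9 of Hoxd (Hoxd1, Hoxd3, Hoxd4 and Hoxd8 to Hoxd13). All 38 were found among the 49997 gene symbols of the RefSeq annotation. The clusters were taken as 4 windows of the mouse genome build mm9. The Hoxa window lies on chromosome 6 from 52100001 to 52215000 (115 kb), the Hoxb window on chromosome 11 from 96050001 to 96235000 (185 kb), the Hoxc window on chromosome 15 from 102745001 to 102872000 (127 kb) and the Hoxd window on chromosome 2 from 74495001 to 74607000 (112 kb). They contain 2156 of the 10130200 bins of 250 bp that were tested over the genome. Each window was set against the 200 kb on either side of it.

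Chromatin was immunoprecipitated with an antibody to KDM2A and sequenced as 1 library, and input DNA, for which no antibody is named, as another. Both came from V6.5 ESCs, a line from a C57BL/6 by 129/sv cross (the strain is labelled C57BL/6), and no genotype or treatment is named for either. The cells were grown on feeder cells and then passaged without them on gelatin, and each library went through 18 cycles of PCR. There are no replicates, so each test below compares these 2 libraries over counting error only. No library made with a control antibody was analysed here. The KDM2A library held 10042076 tags and the input library 9760426 tags, a tag being the aligned position of a read, which gives a genome mean of 3.97 KDM2A tags and 3.85 input tags per kb. To make the libraries comparable, input was multiplied by 1.03, the ratio of their totals, and the ratio of KDM2A to scaled input is called the KDM2A ratio below. DNA libraries carry no expression, and the identity of the cells was not checked by marker genes.

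The genes themselves are referred to by cluster and by the end of the window at which they lie. Gene order was read from RefSeq (GRCm38.p6), in which Hoxa2 lies at the low coordinate end of its listed genes and Hoxa13 at the high end, whereas Hoxb13, Hoxc13 and Hoxd13 lie at the low ends and Hoxb1, Hoxc4 and Hoxd1 at the high ends. Gene positions in the coordinates of the tags were not used here. A peak is therefore given by its position and its distance from an end of the window, and is not assigned to a gene.

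Because the zinc finger of KDM2A reads CpG, promoters that are rich and poor in this dinucleotide are shown for comparison. RefSeq promoter sequences, of 300 bases each from 250 before to 50 after the start, were at hand for 22 of the 38 genes, with 24 promoters in all because Hoxa10 and Hoxd11 have a pair each. The motif searched was CG, which reads the same on both strands and cannot overlap itself. It occurred 4 to 45 times in the Hox promoters with a median of 14.5, against a median of 7 over all 32851 promoters of this length. At least 10 CG were present in 17 of the 24 Hox promoters (70.8%) and in 43.5% of all promoters, and 94.6% of all promoters held at least 1. The sequences below are the richest promoter available in each cluster, followed by those of Hoxa9 and Hoxd4, which are among the poorest. They are printed 5′ to 3′ on the strand of the gene with each CG in capitals. Their places in GRCm38.p6 are chr6:52260831-52261130, minus strand, for Hoxa13, chr2:74667975-74668274, plus strand, for Hoxd13, chr11:96318017-96318316, plus strand, for Hoxb4, chr15:103034145-103034444, plus strand, for Hoxc4, chr6:52227321-52227620, minus strand, for Hoxa9 and chr2:74721728-74722027, plus strand, for Hoxd4. These positions are of another build than the tags and cannot be compared with the peaks below.
Hoxa13: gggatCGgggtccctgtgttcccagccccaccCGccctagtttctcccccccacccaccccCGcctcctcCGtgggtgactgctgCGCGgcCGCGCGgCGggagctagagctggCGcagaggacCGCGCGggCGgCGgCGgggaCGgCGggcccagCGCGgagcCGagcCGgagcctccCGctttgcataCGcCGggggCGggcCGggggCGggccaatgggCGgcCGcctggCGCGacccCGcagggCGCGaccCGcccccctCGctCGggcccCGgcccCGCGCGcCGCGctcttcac
Hoxd13: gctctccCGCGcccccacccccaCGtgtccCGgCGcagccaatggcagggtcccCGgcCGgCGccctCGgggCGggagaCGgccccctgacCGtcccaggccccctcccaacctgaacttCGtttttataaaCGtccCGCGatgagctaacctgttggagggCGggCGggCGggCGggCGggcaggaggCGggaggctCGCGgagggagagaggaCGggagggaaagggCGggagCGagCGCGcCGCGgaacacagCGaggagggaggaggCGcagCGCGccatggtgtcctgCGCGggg
Hoxb4: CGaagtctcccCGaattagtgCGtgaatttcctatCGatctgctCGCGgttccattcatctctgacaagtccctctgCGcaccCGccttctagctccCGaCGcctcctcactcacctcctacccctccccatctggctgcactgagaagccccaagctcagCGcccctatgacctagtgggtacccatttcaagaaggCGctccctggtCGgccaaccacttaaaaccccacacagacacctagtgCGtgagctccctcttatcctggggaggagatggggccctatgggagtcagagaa
Hoxc4: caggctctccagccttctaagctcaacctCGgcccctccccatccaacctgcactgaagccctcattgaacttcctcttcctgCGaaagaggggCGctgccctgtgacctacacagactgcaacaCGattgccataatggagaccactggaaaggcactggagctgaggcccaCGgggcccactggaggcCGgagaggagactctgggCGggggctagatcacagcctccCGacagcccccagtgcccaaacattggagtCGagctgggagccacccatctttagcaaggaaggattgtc
Hoxa9: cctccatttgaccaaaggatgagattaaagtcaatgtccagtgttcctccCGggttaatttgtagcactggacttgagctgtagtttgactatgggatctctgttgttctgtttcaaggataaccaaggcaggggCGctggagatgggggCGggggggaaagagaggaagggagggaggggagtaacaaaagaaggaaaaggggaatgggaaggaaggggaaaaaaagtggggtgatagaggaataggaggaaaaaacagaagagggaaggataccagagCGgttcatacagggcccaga
Hoxd4: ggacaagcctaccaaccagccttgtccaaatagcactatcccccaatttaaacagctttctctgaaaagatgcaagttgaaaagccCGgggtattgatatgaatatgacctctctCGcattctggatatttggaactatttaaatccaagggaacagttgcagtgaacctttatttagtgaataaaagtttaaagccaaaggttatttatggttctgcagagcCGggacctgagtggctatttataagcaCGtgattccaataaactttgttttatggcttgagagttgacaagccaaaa

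Hoxa13 and Hoxd13, which shape the digits and the tail end of the embryo, had 45 and 37 CG in their promoters, and 1.93% and 5.58% of all promoters had as many. Hoxd1 and Hoxa5, a gene of lung and skeletal patterning, had 29 each. The promoter of Hoxb4, known for its role in blood stem cells, had 14, and that of Hoxc4, the only gene of its cluster with a sequence at hand, had 9. Hoxa9, a gene of blood progenitors often raised in leukaemia, had 4, as had Hoxd4 and the upstream promoter of Hoxd11, while the other promoter of Hoxd11 had 25. The promoters within a cluster thus ranged from poor to rich, from 4 to 45 in Hoxa and from 4 to 37 in Hoxd, whereas the 3 promoters of Hoxb at hand (Hoxb1, Hoxb4 and Hoxb8) lay between 10 and 14.

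All 4 clusters held more KDM2A than the DNA around them. The Hoxa window held 1273 KDM2A tags and 466 input tags, the Hoxb window 2254 and 1165, the Hoxc window 1470 and 703, and the Hoxd window 1698 and 536. The 200 kb flanks of each window, which together are longer than the window, held 1493 KDM2A and 1440 input tags for Hoxa, 3391 and 2561 for Hoxb, 2924 and 2329 for Hoxc, and 1316 and 1599 for Hoxd. The KDM2A ratio was 3.08 in Hoxd (95% Wilson interval 2.79 to 3.39), 2.66 in Hoxa (2.39 to 2.95), 2.03 in Hoxc (1.86 to 2.22) and 1.88 in Hoxb (1.75 to 2.02). In the flanks it was 0.800 for Hoxd (0.744 to 0.860), 1.01 for Hoxa (0.937 to 1.08), 1.22 for Hoxc (1.16 to 1.29) and 1.29 for Hoxb (1.22 to 1.35).

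The odds of a tag being KDM2A rather than input were 3.85 times as high in the Hoxd window as in its flanks (exact 95% interval 3.4 to 4.36, adjusted p = 1.73e-112, two-sided Fisher's exact test with Benjamini-Hochberg adjustment over the 4 windows). The odds ratio was 2.63 for Hoxa (2.31 to 3.0, adjusted p = 1.01e-51), 1.67 for Hoxc (1.5 to 1.85, adjusted p = 8.81e-22) and 1.46 for Hoxb (1.34 to 1.60, adjusted p = 1.16e-17), by the same exact test. The windows differed from their flanks mainly in KDM2A and less in input. In Hoxa, KDM2A was 11.1 tags per kb in the window and 3.73 in the flanks, and input was 4.05 and 3.6. In Hoxd, KDM2A was 15.2 and 3.29 tags per kb, and input 4.79 and 4.0. In Hoxc, KDM2A was 11.6 and 7.31, and input 5.54 and 5.82. In Hoxb, KDM2A was 12.2 and 8.48, and input 6.30 and 6.40. The density of KDM2A was thus similar in Hoxa, Hoxb and Hoxc. Hoxb and Hoxc, with the smaller odds ratios, had more input in the window than Hoxa (6.30 and 5.54 against 4.05 tags per kb). Their flanks were also higher in both libraries. How much each of these contributed to the odds ratios was not tested.

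**Figure D1:**
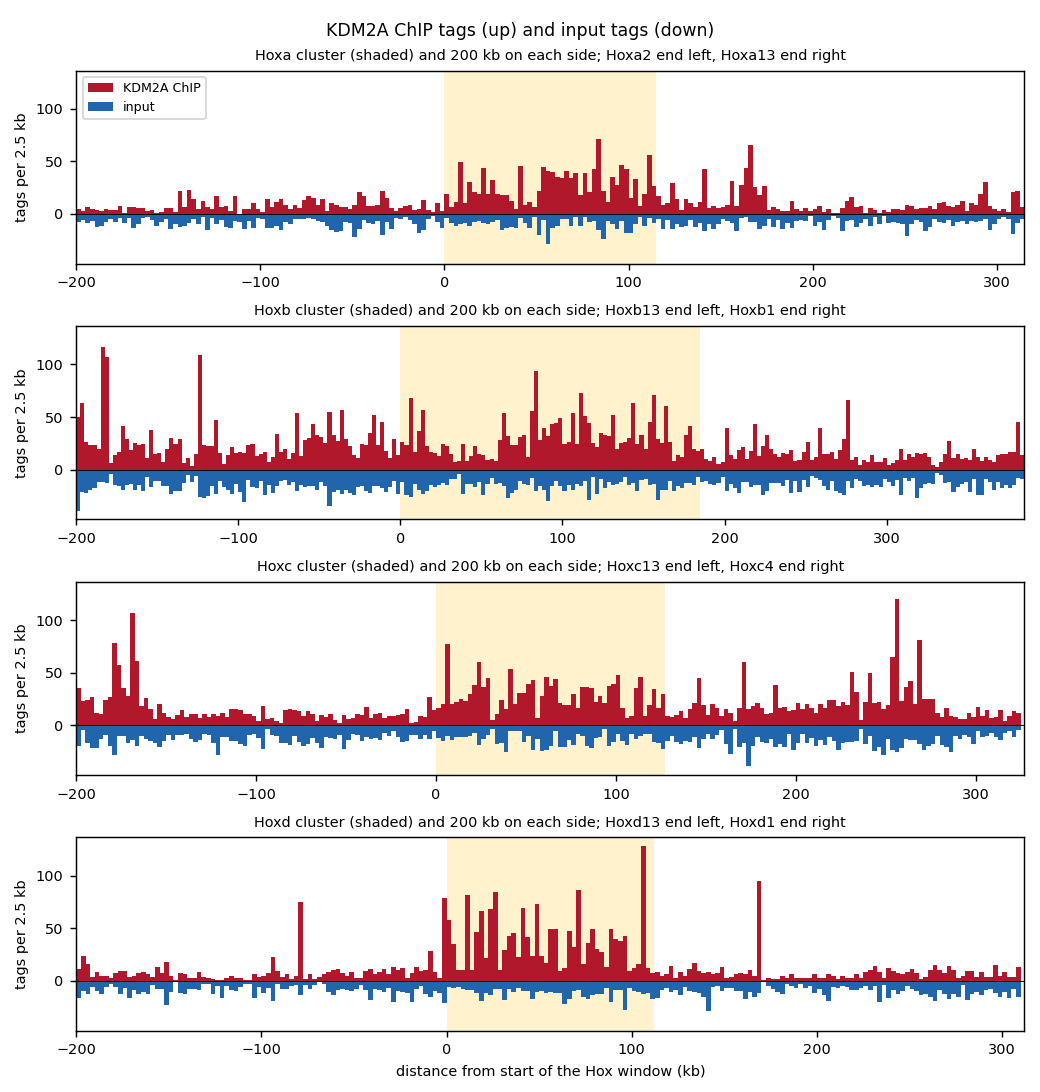
KDM2A ChIP tags (red, upward) and input tags (blue, downward) per 2.5 kb against distance in kb from the start of each Hox window, with the window shaded and 200 kb on each side. KDM2A rises over the shaded Hoxa and Hoxd windows (11.1 and 15.2 tags per kb, against 3.73 and 3.29 in their flanks), while input changes less.

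The 2 sides of a window were not alike. For Hoxa the lower flank, next to the Hoxa2 end, had a KDM2A ratio of 0.854 (0.768 to 0.95) and the upper flank, beyond Hoxa13, 1.16 (1.05 to 1.29). For Hoxb the lower flank, beyond Hoxb13, had 1.51 (1.41 to 1.61) and the upper flank, beyond Hoxb1, 1.02 (0.942 to 1.11). The flanks of Hoxc had 1.10 (1.02 to 1.20) beyond Hoxc13 and 1.32 (1.23 to 1.43) beyond Hoxc4, and those of Hoxd had 0.895 (0.808 to 0.992) beyond Hoxd13 and 0.714 (0.643 to 0.792) beyond Hoxd1. Each window had a higher ratio than either of its flanks. The smallest step was between the Hoxb window and its lower flank, with an odds ratio of 1.25 (exact 95% interval 1.13 to 1.37), and the largest between the Hoxd window and its upper flank, with 4.31 (3.73 to 4.99).

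Among the 6 pairs of windows, 4 differed in the KDM2A ratio by the two-sided Fisher's exact test with adjustment over the 6. Hoxd lay above Hoxb (adjusted p = 2.38e-15) and above Hoxc (adjusted p = 2.03e-09), and Hoxa lay above Hoxb (adjusted p = 2.01e-07) and above Hoxc (adjusted p = 0.000253), in the same exact test. The order of the ratios was Hoxd, Hoxa, Hoxc and Hoxb, and its neighbours at either end were not told apart. The odds ratio of Hoxa to Hoxd was 0.862 (0.745 to 0.998, adjusted p = 0.0561, Fisher's exact test) and that of Hoxb to Hoxc 0.925 (0.824 to 1.04, adjusted p = 0.191, Fisher's exact test). The windows lie on different chromosomes. Outside peaks, the KDM2A ratio was 0.814 for chromosome 6, 0.969 for chromosome 11, 0.889 for chromosome 15 and 0.870 for chromosome 2. By the same measure the windows ran from 1.57 (Hoxb) to 2.11 (Hoxa), and their flanks from 0.670 (Hoxd) to 1.05 (Hoxb).

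**Figure D2:**
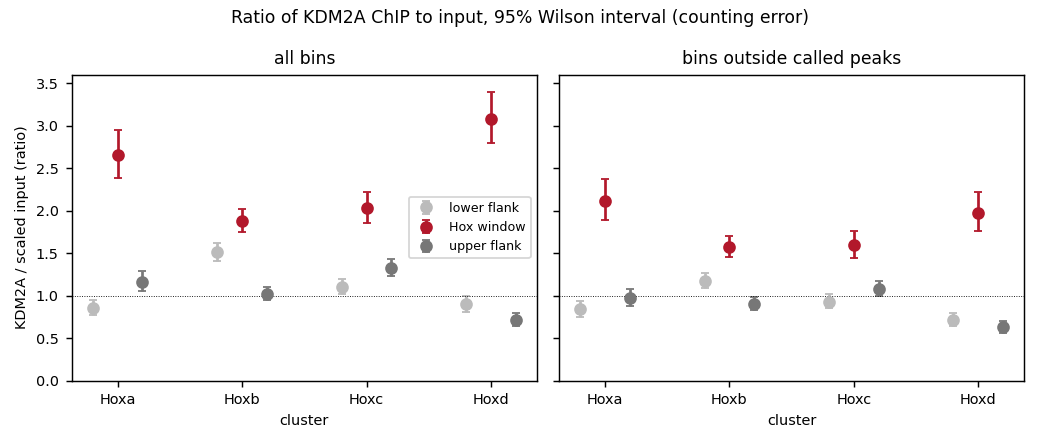
Ratio of KDM2A to scaled input in each Hox window (red) and in the 200 kb below and above it (grey), over all bins (left) and over bins outside called peaks (right), with 95% Wilson intervals. Every window lies above both of its flanks in both panels, from 1.88 in Hoxb to 3.08 in Hoxd over all bins.

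To find where in the clusters KDM2A was concentrated, each 250 bp bin of the genome was tested. A bin was called when it held more KDM2A tags than the genome mean or the surrounding input would give, whichever was larger, by a one-sided exact Poisson test with a Benjamini-Hochberg adjusted p under 0.01 over the whole genome. Called bins separated by 500 bp or less were joined into a peak, and the height of a peak is the number of KDM2A tags in its highest bin. Over the genome 1.05% of the bins were called. In the Hox windows 176 of 2156 bins were called, which is 8.16% (Wilson interval 7.08% to 9.39%), and in the flanks 124 of 6400, or 1.94% (1.63% to 2.31%). Neighbouring bins are not independent, so that these intervals are too narrow. The share was 14.1% in Hoxd, 7.48% in Hoxc, 7.17% in Hoxa and 5.68% in Hoxb. With KDM2A and input exchanged, 0.144% of the bins of the genome were called. Among them were 0 of the 2156 bins of the Hox windows, which allows a share of up to 0.139%. In the flanks it was 12 of the 6400 bins. The exchanged test took the surrounding KDM2A as background where that was above the input mean, so calls were harder where KDM2A was high. The 0 in the windows thus gives no rate of false calls there.

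The called bins formed 92 peaks in the Hox windows, 24 in Hoxa, 23 in Hoxb, 22 in Hoxc and 23 in Hoxd. This is 17.1 peaks per 100 kb, against 3.25 in the flanks (52 peaks) and 1.73 over the genome (43912 peaks). The difference between window and flank was widest at Hoxd, with 23 peaks in 112 kb and 5 in the 400 kb around it, and at Hoxa, with 24 in 115 kb and 9 in 400 kb. Hoxb and Hoxc each had 19 peaks in their flanks. Within a cluster the peaks followed each other closely, at a median distance of 3.5 kb between summits in Hoxa, 4.13 kb in Hoxd, 4.75 kb in Hoxb and 6 kb in Hoxc. For comparison the genome was cut into tiles of the length of each window, of which those with at least 90% of their bins tested were kept. As many peaks as in the Hox window were present in 36 of 21781 tiles for Hoxa (0.165%), 47 of 22362 for Hoxd (0.210%), 90 of 19701 for Hoxc (0.457%) and 192 of 13453 for Hoxb (1.43%). The share of bins called counts wide peaks more. By it, 2.43% of the tiles reached the value of Hoxa, 0.394% that of Hoxd, 2.30% that of Hoxc and 3.61% that of Hoxb. With bins called as above, Hoxa was thus matched by the fewest tiles in number of peaks and Hoxd in share of bins. The rank of Hoxa in number of peaks rests on 24 peaks against 23 in Hoxd and was taken under this call only. In all other settings run, Hoxd had as many peaks as Hoxa or more. With 500 bp bins Hoxa had 21 and Hoxd 22, and with the genome mean alone 23 and 25. Under an adjusted p limit of 0.0001 in the exact Poisson test, Hoxa had 8 peaks, Hoxb 15, Hoxc 8 and Hoxd 17. Tiles were not counted under that limit, and no tile counts are given for the other settings. How far KDM2A raised between the peaks added to the number of low peaks was not tested. The median tile held 1 peak. Tiles were laid from the chromosome start, so that a Hox window can be cut by a tile border and can also contribute to these tiles.

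**Figure D3:**
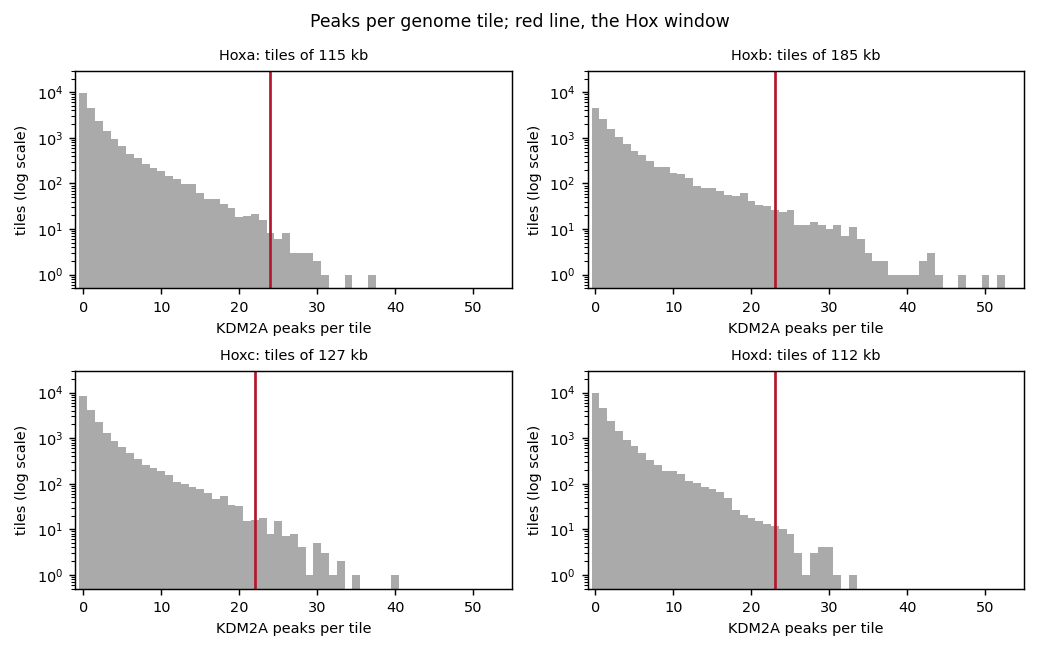
Number of genome tiles (log scale) against the number of KDM2A peaks per tile, for tiles as long as each Hox window, with the Hox window marked by a red line. The 24 peaks of Hoxa and the 23 of Hoxd lie in the right tail of the tiles, where 0.165% and 0.210% of tiles reach as many. The tiles with the most peaks held 37 and 33. Peaks are those called at an adjusted p under 0.01 (exact Poisson test), and tiles were not counted at a stricter limit.

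The peaks of the clusters were many, and those of Hoxa and Hoxc were mostly low. Their height ranged from 7 to 34 tags with a median of 11, where the median of all peaks in the genome was 12 and that of the flanks also 12. A height of at least 15 tags was reached by 17 of the 92 Hox peaks, or 18.5% (Wilson interval 11.9% to 27.6%), by 15 of the 52 peaks in the flanks (28.8%, 18.3% to 42.3%) and by 36.4% of the peaks of the genome. At least 20 tags were reached by 5 Hox peaks (5.43%), against 22.3% over the genome. Hoxa, with the most peaks in this call, had 0 of its 24 peaks at 15 tags or more. Its heights ran from 7 to 14 with a median of 9. The peaks around Hoxa were low as well. Its flanks had 0 of 9 peaks at 15 tags or more, with a median of 8 and a highest value of 13. The flank peaks of at least 15 tags lay around Hoxb (7 of 19), Hoxc (5 of 19) and Hoxd (3 of 5). Hoxc had 2 of 22, with a median of 10 and a highest value of 17. Hoxb had 7 of 23, with a median of 13 and a highest value of 22, and Hoxd had 8 of 23, with a median of 12 and a highest value of 34. A single bin made up 50 of the 92 peaks (54.3%, against 51.1% over the genome), and 17 were at least 1 kb wide (18.5%, against 26.1%), of which 8 were in Hoxd.

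Genome tiles with as many peaks as a Hox window mostly had a higher highest peak. The highest peak of such tiles had a median of 44 tags for tiles as long as Hoxa, and 0 of these 36 tiles had a highest peak as low as the 14 tags of Hoxa. For Hoxc, with a highest peak of 17 tags, it was 0 of 90 tiles, at a median of 41, and for Hoxb, with 22 tags, 3 of 192, also at a median of 41. Hoxd, with 34 tags, was matched or undercut by 15 of 47 tiles, at a median of 42. The median height per tile gave the same order for Hoxa (9 tags, 0 of 36 tiles as low) and Hoxc (10 tags, 2 of 90), whereas in Hoxb (13 tags, 111 of 192) and Hoxd (12 tags, 17 of 47) it lay within the bulk of the tiles. These counts describe the distribution over tiles and are not a test.

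**Figure D4:**
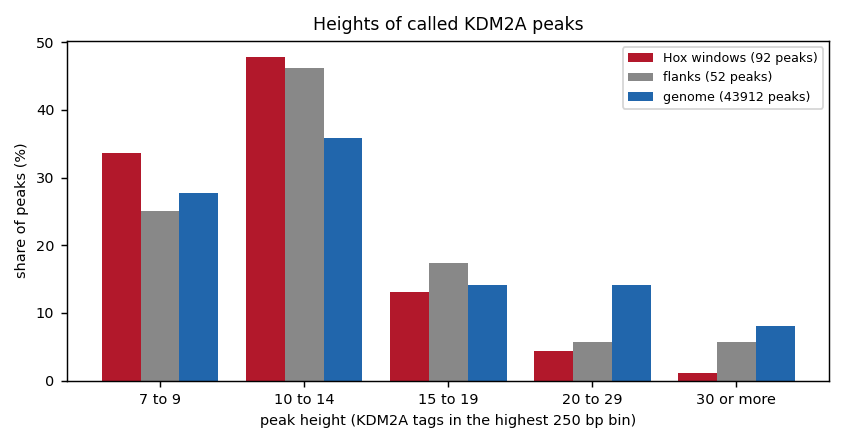
Share of called peaks (percent) by height, the KDM2A tags in the highest 250 bp bin, for the Hox windows (red), their flanks (grey) and the genome (blue). Heights of 10 to 14 tags make up 47.8% of the Hox peaks and 35.9% of those of the genome, and heights of 30 or more make up 1.09% and 8.10%.

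Taken over each whole window, KDM2A was also raised between the peaks. Peaks held 30.9% of the KDM2A tags of the Hox windows (29.9% to 32.1%), 19.1% of those of the flanks and 16.3% of those of the genome. The share was highest in Hoxd, at 46.5%, and lay at 27.8% in Hoxc, 26.5% in Hoxa and 23.9% in Hoxb. With all peaks left out of both the window and its flanks, the KDM2A ratio of the window was 2.11 in Hoxa (1.88 to 2.37), 1.98 in Hoxd (1.77 to 2.21), 1.59 in Hoxc (1.44 to 1.75) and 1.57 in Hoxb (1.46 to 1.70), and that of the flanks 0.904, 0.670, 1.01 and 1.05 in the same order. Over the whole genome outside peaks the ratio was 0.854. The rise between peaks was uneven along the windows. In the longest stretch without a called bin the ratio was 2.02 in Hoxd (1.49 to 2.75) and 1.45 in Hoxa (1.07 to 1.97). It was 1.25 in Hoxc (0.942 to 1.67) and 1.06 in Hoxb (0.897 to 1.25). The Hoxb stretch, of 47.75 kb, was thus near the 1.05 of the Hoxb flanks outside peaks. The odds ratio of window to flanks outside peaks was 2.95 for Hoxd (exact 95% interval 2.57 to 3.39), 2.33 for Hoxa (2.03 to 2.68), 1.58 for Hoxc (1.41 to 1.77) and 1.5 for Hoxb (1.36 to 1.65). Bins just below the limit of the call stay among those left, since a bin needed at least 7 tags to be called, and how much of the rise they carry was not tested. Base composition and the share of each window on which reads can be placed were not measured.

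Hoxd had the highest single bin of the 4 clusters and the pair of peaks with the most tags, although the median height was 12 tags in Hoxd and 13 in Hoxb. The peak with the most tags lay 106.125 kb into the 112 kb window, at the end of Hoxd1, from 74600501 to 74601750. It held 105 KDM2A tags and 7 input tags and reached 34 tags, a height that 5.19% of the peaks of the genome shared or exceeded (adjusted p = 1.41e-31, exact Poisson test). Its 5 bins held 12, 19, 34, 22 and 18 KDM2A tags, while the bins to either side of it held 2 and 5, so that it rose and fell within about 1 kb. The widest Hox peak, from 74519751 to 74522000, was 2250 bp wide and lay nearer the Hoxd13 end, 25.625 kb into the window. It held 89 KDM2A tags and 5 input tags but was only 16 tags high, and 4.07% of the peaks of the genome were as wide. The next by tags, from 74565251 to 74566750, reached 21 tags in its highest bin, with 73 tags of KDM2A and 6 of input in all (adjusted p = 5.46e-18, exact Poisson test). It was followed by peaks from 74534751 to 74536750, with 63 KDM2A and 6 input tags, and from 74542751 to 74544250, with 62 and 5. A narrower peak close to the Hoxd13 end, from 74506251 to 74507000, held 53 and 5 tags and was 22 tags high. The longest stretch of Hoxd without a call, from 74573751 to 74584750, spanned 11 kb, the shortest of the 4 windows. It held 125 KDM2A and 60 input tags and still had a KDM2A ratio of 2.02 (1.49 to 2.75).

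In Hoxa the peaks were low, and 16 of the 24 lay on the side of Hoxa13 and 8 on the side of Hoxa2. The peak with the most tags lay at the Hoxa13 end, from 52210001 to 52211250, and held 40 KDM2A tags and 2 input tags at a height of 12 (adjusted p = 1.88e-07, exact Poisson test). Its bins held 12, 8, 5, 6 and 9 KDM2A tags, with no single summit. The peak nearest the Hoxa2 end, from 52108001 to 52109000, held 33 KDM2A and 4 input tags at a height of 13. A further peak from 52184001 to 52184750 held 33 KDM2A and 0 input tags at a height of 14, the highest in the cluster together with a single bin from 52195251 to 52195500, which held 14 KDM2A and 0 input tags. The peaks from 52162001 to 52163000 and from 52141001 to 52141500 held 21 and 18 KDM2A tags against 5 and 1 input tags. In steps of 10 kb along the window, the ratio was lowest from 30 to 40 kb, at 0.972 (0.666 to 1.42). It was 4.37 (2.99 to 6.40) from 60 to 70 kb and 4.55 (2.96 to 6.98) from 70 to 80 kb, and highest over the last 5 kb, at 6.21 (3.49 to 11.05). The longest stretch without a call, from 52125751 to 52141000, spanned 15.25 kb and had a ratio of 1.45 (1.07 to 1.97).

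Hoxb was divided into parts with and without peaks. Near the Hoxb13 end, a single bin from 96055501 to 96055750 held 13 KDM2A and 7 input tags, and a peak from 96064001 to 96065000 held 42 and 11 tags at a height of 21 (adjusted p = 7.19e-12, exact Poisson test). Then no bin was called for 47.75 kb, from 96065001 to 96112750, the longest such stretch of the 4 windows. It held 296 KDM2A and 272 input tags, a ratio of 1.06 (0.897 to 1.25), and at most 7 KDM2A tags in a bin. The other 21 peaks lay in the rest of the window towards Hoxb1. The one with the most tags, from 96132501 to 96134000, held 85 KDM2A and 14 input tags at a height of 22 (adjusted p = 7.24e-16, exact Poisson test). Its 6 bins held 16, 18, 10, 8, 22 and 11 KDM2A tags, so that it had a pair of summits. The peak nearest the Hoxb1 end, from 96227001 to 96228500, was as wide but flatter, with 49 KDM2A and 7 input tags at a height of 11. Those from 96194251 to 96195000 and from 96207001 to 96207750 held 36 and 35 KDM2A tags against 7 input tags each. Hoxb13 is known to lie apart from the rest of its cluster, and whether the stretch without calls is that spacer was not determined, as gene positions in the coordinates of the tags were not used.

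In Hoxc the pair of peaks with the most tags lay towards opposite ends. The peak with the most tags, at the Hoxc13 end from 102751251 to 102752750, held 74 tags of KDM2A and 5 of input (adjusted p = 2.16e-11, exact Poisson test). Its 6 bins held 9, 7, 17, 17, 15 and 9 KDM2A tags, a flat top with a height of 17. Towards the Hoxc4 end, a peak from 102857251 to 102858250 held 45 KDM2A and 5 input tags and was also 17 tags high (adjusted p = 3.42e-12, exact Poisson test). In between were peaks from 102773001 to 102774000, with 36 KDM2A and 5 input tags, from 102797751 to 102798500, with 28 and 9, and from 102845501 to 102846250, with 25 and 2. In steps of 10 kb the ratio fell to 0.822 (0.575 to 1.18) from 30 to 40 kb, where no bin was called, and was 3.62 (2.64 to 4.98) just before it and 3.86 (2.66 to 5.61) just after it. The longest stretch without a call spanned 12.75 kb, from 102812501 to 102825250, with a ratio of 1.25 (0.942 to 1.67).

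**Figure D5:**
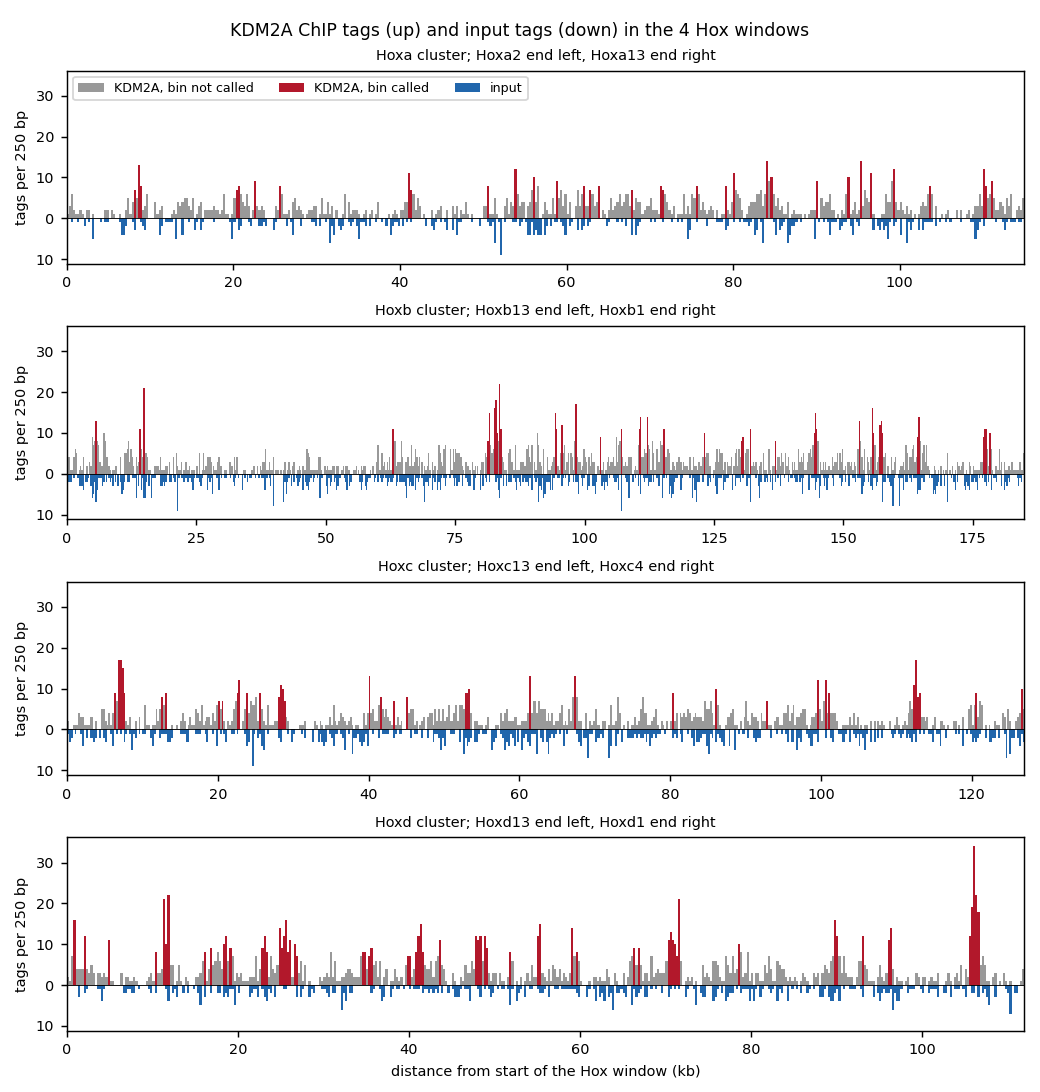
KDM2A tags (upward, red where the bin was called and grey where not) and input tags (downward, blue) per 250 bp against distance in kb from the start of each Hox window. Called bins are spread over Hoxa, Hoxc and Hoxd, Hoxb has 47.75 kb without any, and the highest bin, with 34 tags, lies at the Hoxd1 end.

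A comparison of the sides of each window, divided at its midpoint, was added after the data were seen. In Hoxa, the side of Hoxa13 held 759 KDM2A and 227 input tags and the side of Hoxa2 514 and 239, an odds ratio of 1.55 (exact 95% interval 1.25 to 1.94, adjusted p = 9.55e-05, two-sided Fisher's exact test adjusted over the 4 windows). In Hoxd, the side of Hoxd13 held 922 and 238 tags and the side of Hoxd1 776 and 298, an odds ratio of 1.49 (1.22 to 1.82, adjusted p = 9.55e-05, Fisher's exact test), although the highest peak lay at the Hoxd1 end. In Hoxc, the side of Hoxc13 held 787 and 342 tags and that of Hoxc4 683 and 361, with an odds ratio of 1.22 (1.01 to 1.46, adjusted p = 0.0348, Fisher's exact test). That call was lost with 1 tag per position and strand (1.20, adjusted p = 0.0651, Fisher's exact test) and with peaks left out (1.06, adjusted p = 0.550, Fisher's exact test). Hoxb went the other way, with 981 and 605 tags on the side of Hoxb13 and 1273 and 560 on the side of Hoxb1, an odds ratio of 0.713 (0.617 to 0.824, adjusted p = 1.22e-05, Fisher's exact test), and its side of Hoxb13 contains the stretch of 47.75 kb without calls.

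Peaks were also present next to the clusters. The highest peak of the flanks was 31 tags for Hoxb and for Hoxc, above the 22 and 17 tags of the highest peaks within those clusters. It was 29 tags for Hoxd and 13 for Hoxa, below the 34 and 14 tags within. The lower flank of Hoxb held a peak of 3250 bp, wider than any in the 4 windows, from 95866001 to 95869250, with 209 KDM2A and 20 input tags. The lower flank of Hoxd had a peak from 74493001 to 74494500, just outside the window on the side of Hoxd13, with 62 KDM2A and 10 input tags at a height of 15. The upper flank of Hoxa held 2 wide and low peaks about 50 kb beyond the window, from 52263251 to 52265000 with 42 KDM2A and 2 input tags and from 52266001 to 52268000 with 61 and 6, and their heights of 8 and 12 resembled those of the Hoxa cluster itself. In the upper flank of Hoxd a single peak was called in 200 kb, from 74663751 to 74664500, with 78 KDM2A and 7 input tags and a height of 29.

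Tags beyond the first at a position made up 3.73% to 5.89% of the KDM2A tags of the 4 windows and 18.7% to 24.5% of their input tags, against 4.75% and 20.4% over the genome. Without them 80 peaks were called in the windows, 20 in Hoxa, 19 in Hoxb, 20 in Hoxc and 21 in Hoxd, and 79 of the 92 peaks overlapped a peak called in this way. Their median height stayed at 11 tags and the highest was 30 tags. At an adjusted p limit of 0.0001 in the exact Poisson test, 48 peaks were called in the windows in place of 92 (52.2%, against 57.3% over the genome), with 8 in Hoxa, 8 in Hoxc, 15 in Hoxb and 17 in Hoxd.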

How the data were processed

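The authors aligned the reads to mm9 (Bowtie and the build are named in the submitters' processing notes, the version is not given in the sources used here) and deposited, per library, the count of tags at each position and strand, without normalization. The highest count was 7 in the KDM2A and 9 in the input library. PCR copies are not independent molecules, and all intervals cover counting error only.

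Here plus-strand tags were moved 50 bp up and minus-strand tags 50 bp down in coordinate and counted in 250 bp bins. Bins of 10 kb blocks with a tag were tested as described above, local input being the mean over the surrounding 5 kb. Peaks belong to the window that holds their summit. Tag counts of regions were compared by two-sided Fisher's exact tests with exact conditional intervals, and shares are given with 95% Wilson intervals. Python 3.11.15, numpy 2.4.6, pandas 2.3.3, scipy 1.17.1 and matplotlib 3.10.9 were used. The calls were also run on simulated Poisson counts at the local input rate, with peaks added. These counts hold no PCR copies and no broadly raised KDM2A, so they cannot show how the calls behave in the Hox windows. In each window, the 5 peaks with the most tags, the widest and the longest stretch without a call are named, and other peaks were named after their values were seen. Members, windows and tests were chosen with earlier results of these data known. No genome sequence or gene positions in mm9 were used.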

Additional observations from a re-analysis of the deposited data

How the results depend on the processing

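No paired analysis was possible because the KDM2A and input arms hold 1 library each, and leaving out a replicate was likewise not possible. The odds ratio of window to flanks was recomputed with 1 tag per position and strand, no movement of tags, flanks of 100 kb and flanks without peaks. All 16 alternative values kept their direction and stayed past the threshold. In the last setting the window kept its peaks, which raises the odds ratio by construction. Values with peaks left out of both are given above. The number of pairs of windows that differed was 4 under both alternatives run for it, and which pairs these were was not recorded. For the sides of the windows, an added comparison, the odds ratio of Hoxc was 1.20 with 1 tag per position and strand and 1.06 without bins in peaks, no longer past the threshold.

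Of 28 alternative peak counts, 25 stayed within 1.5 times. At an adjusted p limit of 0.0001 there were 8 peaks in Hoxa, 15 in Hoxb and 8 in Hoxc. The share of bins called moved more. With 500 bp bins it was 15.2% in Hoxa, 11.1% in Hoxb, 13.8% in Hoxc, 23.2% in Hoxd and 1.70% over the genome. At the limit of 0.0001 it was 1.74%, 2.70%, 2.36%, 8.26% and 0.613%. With the genome mean alone it was 11.2% in Hoxb, 10.8% in Hoxc, 18.5% in Hoxd and 1.72% over the genome, and with input scaled by bins outside peaks 7.70% in Hoxb and 1.34% over the genome. The genome share was 0.970% with 1 tag per position and strand and 1.04% without movement of tags. A stricter limit and larger bins change the share by construction, and for the other settings the cause was not tested. The share was higher in each window than over the genome in all of these settings. Depth limits the low peaks, since 7 tags were needed for a call and the mean bin held 0.991 KDM2A tags.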
